A study of Mus musculus with 16 samples.

Results

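Loss of ERα without DES was examined in mouse seminal vesicles (SV) at week 5, by comparing the 4 αERKO-veh samples with the 4 WT-veh samples. These 8 samples belong to a series of 16. They were taken by their labels alone, and every gene with a mean FPKM (fragments scaled to the transcript's length and to all fragments mapped) above 1 in either group was tested, which left 14627 of 31274 genes. All mice were C57BL/6. The αERKO mice lack ERα in every tissue from conception and came from crosses between heterozygous carriers, whereas the pregnant WT females were bought in. Both groups received corn oil, the vehicle, by injection on days 1 to 5 after birth, and each sample was described by the study as 1 individual mouse. The other two groups, WT-DES and αERKO-DES, received 2 µg DES (diethylstilbestrol, a synthetic oestrogen) per pup per day on the same days. αERKO-DES values are given beside some results, because those 4 mice also lack ERα, but they differ from αERKO-veh in treatment and share the WT-veh controls. Both αERKO groups came from the heterozygous crosses and both WT groups from bought-in females, so source cannot be told apart from genotype.

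ERα, encoded by Esr1, is a nuclear receptor that binds oestrogens and then binds DNA at oestrogen response elements, either alone or through other factors, to raise or lower transcription. The SV is an androgen-dependent gland. Its epithelium secretes much of the protein of the seminal fluid. Because the deletion is global, pituitary and testis also lack the receptor, and circulating hormone levels were not measured here, so local and systemic effects of ERα loss cannot be told apart. In whole tissue, fewer cells of a type and less RNA per cell cannot be told apart either.

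Before any gene is described, a pair of sample properties has to be stated, because they move with genotype. The first is transcript length. Relative to the mean of all samples, genes with long transcripts read lower in WT-veh than in αERKO-veh: Spearman's rho between a gene's deviation and its transcript length was -0.407, -0.261, -0.473 and -0.573 in WT-veh samples 1 to 4, and -0.123, 0.453, 0.10 and 0.259 in αERKO-veh samples 1 to 4. The ranges of the groups did not overlap. The second is skeletal muscle. Averaged over the 44 tested markers of that tissue, log2(FPKM + 1) was 1.55, 1.38, 2.04 and 4.31 in WT-veh and 2.33, 4.71, 5.28 and 4.41 in αERKO-veh, so that 1 WT-veh sample and 3 αERKO-veh samples were high. The part that either property has in a gene's change was not tested. Calls are therefore given for the values as deposited and, for the lists and the genes described at length, also after subtraction of each sample's length trend or with the muscle level as a covariate. Within a group, log2(FPKM + 1) correlated between samples with r of 0.985 to 0.993 for WT-veh and 0.986 to 0.993 for αERKO-veh, across genes. The number of reads behind each FPKM is unknown.

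**Figure D1:**
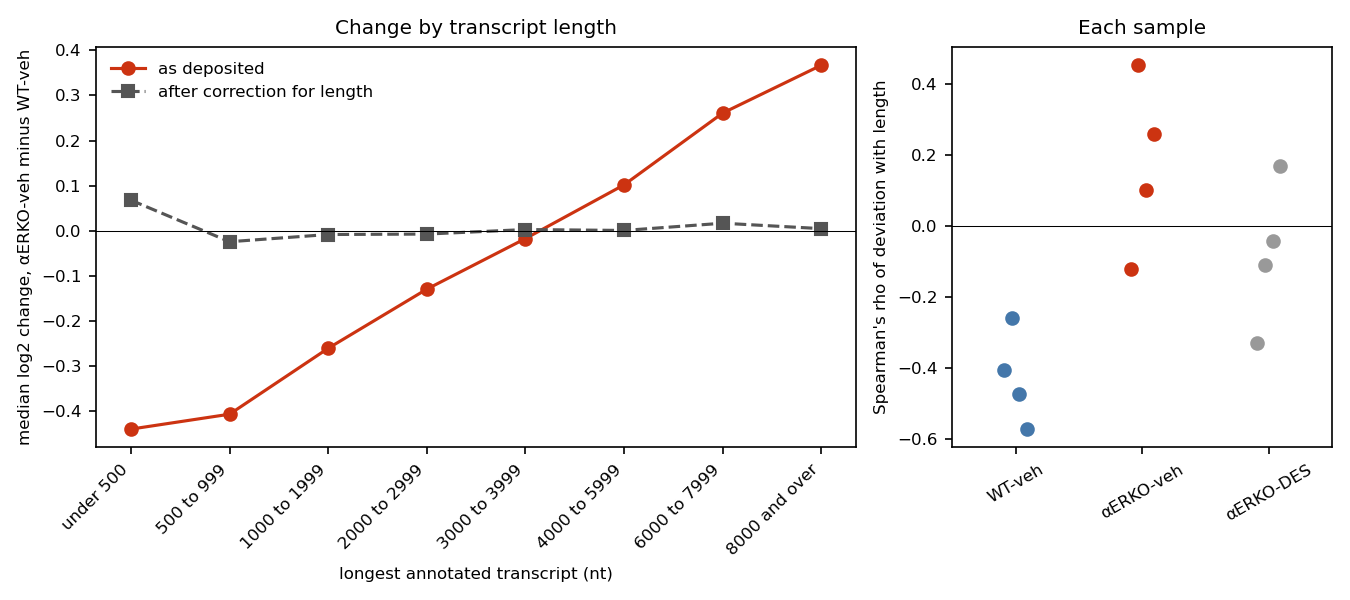
Median log2 change in αERKO-veh relative to WT-veh by class of transcript length (left; circles, as deposited; squares, after correction for length), and Spearman's rho of each sample's deviation from the mean of all samples with transcript length (right; 1 point a sample). The median rose from -0.44 under 500 nt to 0.37 at 8000 nt and over, and lay between -0.02 and 0.07 in every class after the correction.

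Esr1 itself was lower in every αERKO-veh sample. Its FPKM was 4.43, 4.55, 3.7 and 2.81 in WT-veh samples 1 to 4 and 1.3, 1.59, 1.75 and 1.43 in αERKO-veh samples 1 to 4, with no overlap. The means were 3.87 ± 0.802 and 1.52 ± 0.195 (SD, n = 4), a 2.55-fold fall (log2 change -0.94 ± 0.19 SE, adjusted p = 0.00671 by limma). The fall held after the correction for length (log2 change -1.16, adjusted p = 0.00412) and with the muscle covariate (adjusted p = 0.0494). In αERKO-DES the values were 0.91, 1.15, 1.51 and 1.64. Esr1 lies at chr10:4611593-5005614 on the plus strand (mm10), and a value per gene does not show which exons the remaining fragments came from. Of 16 tested genes on the list of Esr1 and its neighbours on the chromosome, Plekhg1 and Akap12 were also called, both higher, against 5.09% of all genes. Plekhg1 was 2.93, 3.71, 2.74 and 2.65 in WT-veh and 5.09, 7.02, 5.8 and 6.64 in αERKO-veh, and Akap12 7.02, 6.79, 5.55 and 6.36 and 7.28, 17.5, 8.69 and 12.5. Neither was called after the correction for length.

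Among the other steroid receptors, no fall was called. The glucocorticoid receptor gene Nr3c1 had FPKM of 11.2, 11.9, 9.86 and 7.92 in WT-veh and 13, 18.5, 13.5 and 15.2 in αERKO-veh. Its groups did not overlap and its adjusted p was 0.016, but the ratio of 1.47 was under the fold required, and it was called with the muscle covariate but had an adjusted p of 0.0588 after the correction for length (log2 change 0.29). Esr2, encoding ERβ, stood between 0.64 and 0.94 in WT-veh and between 0.74 and 1.12 in αERKO-veh, under the level needed for a test, and Pgr, the progesterone receptor gene and a well known ERα target, stood at 0.66, 1, 0.64 and 0.44 and 0.4, 0.48, 0.32 and 0.67. Gper1, a membrane oestrogen receptor gene, was 1.08, 0.8, 1.06 and 1.27 and 1.09, 1.62, 0.82 and 0.94 (adjusted p = 0.853).

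A differentially expressed gene (DEG) was a gene with an adjusted p of at most 0.05 and means that differed at least 1.5-fold. By this rule 1176 genes changed, 8.04% of those tested, with 744 higher (5.09%) and 432 lower (2.95%) in αERKO-veh. Without the fold requirement 4320 genes passed (29.5%), of which 1791 were higher and 2529 lower. The 4 αERKO-veh values lay wholly above or below the 4 WT-veh values for 4667 genes (31.9%), and for 919 of the DEGs. The median log2 change over all genes tested was -0.03. Rescaling each sample without its 20 most abundant genes moved that median to 0.12 and the share of DEGs that were higher from 63.3% to 91.9%, so the balance of higher against lower depends on the scale. Single samples weighed on the count, which was 473 without αERKO-veh 2, 768 without WT-veh 3 and between 810 and 1683 without any other sample.

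DEGs were distributed by transcript length. The median length was 6112 nt for higher DEGs, 1420 nt for lower DEGs and 3268 nt for all tested genes. Of 728 genes with transcripts of 8000 nt and over, 27.5% were higher and 0.27% lower. Of 161 genes under 500 nt, 1.24% were higher and 14.9% lower. After the correction for length, 372 of the 13854 genes with a known length were DEGs (2.69%), 268 higher (1.93%) and 104 lower (0.751%). That count was 106 without αERKO-veh 2, 138 without WT-veh 3 and 606 without αERKO-veh 1. Both lists shared 278 genes in the same direction, 216 higher and 62 lower, which is 23.6% of the DEGs as deposited. With the muscle covariate 680 genes were DEGs (4.65%), among them 120 of these 278. That covariate was itself higher in most αERKO-veh samples, so part of a genotype difference can be removed with it.

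The genes least affected by these choices are described first. Of the 1176 DEGs, 58 (43 higher, 15 lower) were called under every one of the 25 alternatives that tested them, including the corrections for length and muscle and the removal of each sample in turn. A transcript length was known for 48 of them, and the others were not tested with the correction for length. They were selected on this contrast after its values were seen, so what follows describes them and adds no test.

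Cpm, which encodes carboxypeptidase M, a membrane enzyme that removes basic residues from the end of peptides, had the smallest adjusted p of the group. Its FPKM was 21.4, 21.1, 19.1 and 20.2 in WT-veh and 38.3, 47.4, 43.6 and 39.2 in αERKO-veh. In αERKO-DES it was 40.4, 44.8, 42.6 and 47.1. All αERKO samples lay far above all WT-veh samples, and the mean rose 2.06-fold (log2 change 1.00 ± 0.08 SE, adjusted p = 5.13e-05; log2 change 0.86 after the correction for length). Slc1a1, a glutamate and aspartate transporter gene, was 4.62, 4.32, 4.51 and 4.99 in WT-veh and 12.6, 13.3, 12.2 and 10.5 in αERKO-veh (2.64-fold, log2 change 1.23 ± 0.18 SE, adjusted p = 0.00274), and 11.1, 13.1, 17.6 and 17.3 in αERKO-DES. Dusp4, which encodes a phosphatase that switches off MAP kinases, was 7.54, 7.5, 5.86 and 6.03 and 16.4, 19.2, 13.3 and 18.2 (2.49-fold, log2 change 1.20 ± 0.18 SE, adjusted p = 0.0031). After the correction for length the changes were little different, at 1.22 for Slc1a1 and 1.29 for Dusp4 on the log2 scale.

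Others of the group rose about as evenly across samples. Fut4, which encodes a fucosyltransferase that makes the Lewis x antigen, was 4.44, 4.49, 4.16 and 4.39 in WT-veh and 8.47, 8.85, 7.98 and 9.19 in αERKO-veh (log2 change 0.84 ± 0.12 SE, adjusted p = 0.00267). Mamld1, an X-linked gene mutated in some boys with hypospadias, was 3.74, 4.21, 3.42 and 3.57 and 7.98, 9.06, 7.36 and 8.37 (log2 change 0.96 ± 0.10 SE, adjusted p = 0.000433). Fam19a5, which encodes a small secreted protein, was 6.94, 6.51, 5.51 and 7.78 and 14.2, 15.1, 17.3 and 13 (log2 change 1.05 ± 0.11 SE, adjusted p = 0.000433). For each of these genes the lowest αERKO-veh sample stood well above the highest WT-veh sample. Atp13a4, a transport ATPase gene, was near 1 in WT-veh, at 1.23, 1.03, 1.07 and 1.45, and 6.41, 4.23, 4.21 and 3.59 in αERKO-veh (log2 change 1.33 ± 0.16 SE, adjusted p = 0.000947). Angptl7, a secreted angiopoietin-like protein gene, was 8.44, 7.88, 5.63 and 8.28 and 22.8, 30.1, 15.6 and 17 (log2 change 1.36 ± 0.28 SE, adjusted p = 0.0073). Rarres1, named for its induction by retinoids, was 1.13, 1.33, 1.05 and 1.36 and 5.34, 4.53, 4.14 and 3.27 (log2 change 1.25 ± 0.22 SE, adjusted p = 0.00451). In αERKO-DES, Atp13a4 ranged from 5.69 to 8.79, Angptl7 from 22 to 41.9 and Rarres1 from 4.76 to 12.9.

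A few of these genes were abundant. Ero1lb, which encodes an oxidase that helps form disulphide bonds in secreted proteins, rose from 51 ± 5.8 to 85.9 ± 13 (log2 change 0.73 ± 0.13 SE, adjusted p = 0.00487). Slc44a4, a choline transporter-like gene, rose from 51.1 ± 3.08 to 87.9 ± 13.2 (log2 change 0.76 ± 0.13 SE, adjusted p = 0.00451), and Abhd2, a lipid hydrolase gene, from 35.9 ± 8.59 to 79.6 ± 11.6 (log2 change 1.14 ± 0.20 SE, adjusted p = 0.00451; SD, n = 4 for each mean). None of their groups overlapped.

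Fewer of the group fell. Csf2rb, the beta chain shared by the receptors for interleukin 3, interleukin 5 and GM-CSF, was 12.3, 11.5, 10.3 and 8.36 in WT-veh, 4.16, 4.41, 3.24 and 5.3 in αERKO-veh and, with DES, 4.04, 4.74, 3.12 and 3.11 in αERKO-DES (log2 change -1.14 ± 0.14 SE, adjusted p = 0.000947). Its fall was larger after the correction for length (-1.26). Krt80, a keratin gene of epithelia, was 6.23, 6.89, 7.42 and 6.96 and 1.72, 3.49, 2.51 and 3.33 (log2 change -1.09 ± 0.21 SE, adjusted p = 0.00578). Glipr2 was 21.4, 22.8, 22.9 and 24.4 and 14.3, 10.8, 9.03 and 13.8, and the long non-coding RNA Dancr was 31.1, 31.3, 40.6 and 34.7 and 18.6, 14, 20.2 and 17.6. Both fell, with adjusted p of 0.00211 and 0.00171. Rn45s, the ribosomal RNA precursor, was 721, 419, 599 and 576 and 329, 222, 277 and 309 (adjusted p = 0.00832); it has no length in the annotation used and so no corrected value.

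**Figure D2:**
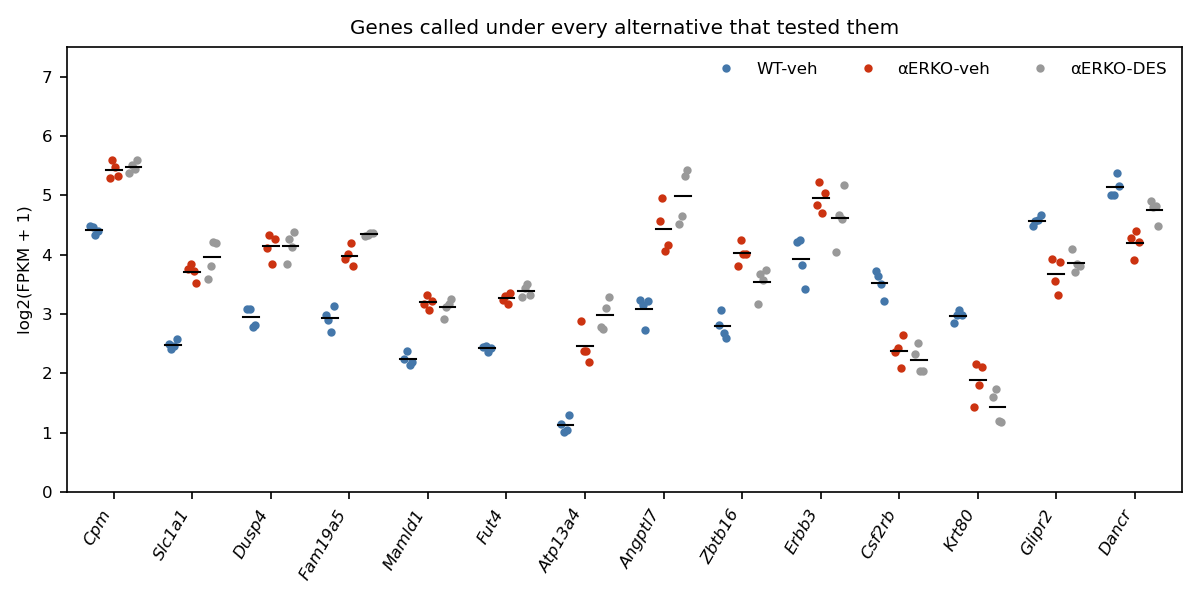
log2(FPKM + 1) of 14 genes called under every alternative that tested them, in WT-veh, αERKO-veh and αERKO-DES (1 point a sample, lines at the means of 4). For Cpm the αERKO-veh samples reached 38.3 to 47.4 FPKM against 19.1 to 21.4 in WT-veh, and for Csf2rb 3.24 to 5.30 against 8.36 to 12.3.

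The promoters of 4 of the genes with stable calls are printed, since ERα acts through DNA: Cpm for its adjusted p, Slc1a1 and Setdb2 among the rises, and Ms4a5 as the largest fall among them on the log2 scale. Each is the RefSeq sequence from 250 bases before to 50 bases after the gene's start on GRCm38.p6, read 5′ to 3′ on the gene's strand, and capitals mark GGTCA, one arm of the oestrogen response element, on either strand (TGACC when read on the printed one).
Cpm, chr10:117629250-117629549, plus strand: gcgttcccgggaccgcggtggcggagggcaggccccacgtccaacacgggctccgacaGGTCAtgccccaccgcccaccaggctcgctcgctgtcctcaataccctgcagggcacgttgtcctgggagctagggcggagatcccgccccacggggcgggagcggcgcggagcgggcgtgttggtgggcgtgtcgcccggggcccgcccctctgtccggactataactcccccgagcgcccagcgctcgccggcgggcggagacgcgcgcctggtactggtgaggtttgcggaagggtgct
Slc1a1, chr19:28834885-28835184, plus strand: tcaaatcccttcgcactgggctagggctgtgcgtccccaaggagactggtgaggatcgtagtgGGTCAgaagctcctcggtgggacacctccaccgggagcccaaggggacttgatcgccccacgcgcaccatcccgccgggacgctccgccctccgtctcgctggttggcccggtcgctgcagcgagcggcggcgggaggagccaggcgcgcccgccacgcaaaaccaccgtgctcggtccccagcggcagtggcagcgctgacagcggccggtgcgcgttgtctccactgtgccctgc
Setdb2, chr14:59440831-59441130, minus strand: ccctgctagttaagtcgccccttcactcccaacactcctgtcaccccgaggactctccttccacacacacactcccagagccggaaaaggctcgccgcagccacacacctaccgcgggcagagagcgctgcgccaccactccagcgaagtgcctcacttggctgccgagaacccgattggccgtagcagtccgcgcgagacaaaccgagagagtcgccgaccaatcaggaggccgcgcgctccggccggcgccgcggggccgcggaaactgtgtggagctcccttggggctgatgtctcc
Ms4a5, chr19:11283764-11284063, minus strand: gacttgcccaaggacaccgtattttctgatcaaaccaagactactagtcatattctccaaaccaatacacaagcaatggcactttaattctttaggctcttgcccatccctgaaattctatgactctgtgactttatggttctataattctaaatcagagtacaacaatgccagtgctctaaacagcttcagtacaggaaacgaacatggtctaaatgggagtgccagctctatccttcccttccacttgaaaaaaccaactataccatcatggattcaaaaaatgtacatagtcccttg
This arm occurred once in the Cpm and once in the Slc1a1 window and in neither of the other two. G and C made up 73.7%, 70.3% and 66.3% of the Cpm, Slc1a1 and Setdb2 windows, and 40% of that of Ms4a5. The arm, with any full element included, is common: 40.5% of 32851 promoters held it, and 38.3% of those of tested genes, against 41.7% of 192 promoters of genes higher both as deposited and after the correction and 27.5% of 51 promoters of genes lower in both. The full palindrome, in which GGTCA is followed after any 3 bases by TGACC, was in 0.07% of all promoters, in 0.00757% of those of tested genes and in 0 of either set. ERα is known to bind mostly far from promoters, and no binding was measured in these samples by the table used here.

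The largest rises were taken from DEGs called in both fits, with a mean FPKM of at least 5 in a group, no overlap, and no place on the muscle, adipose or small RNA lists. Sval2, a relative of the SV secretory antigen gene Sva, rose most by the ratio of mean FPKM. Its FPKM was 0.61, 0.96, 1.27 and 0.74 in WT-veh, 6.26, 4.51, 8.05 and 2.23 in αERKO-veh and, with DES, 6.94, 7.67, 17.9 and 11.4 in αERKO-DES (5.88-fold, log2 change 1.64 ± 0.30 SE, adjusted p = 0.00487). It was barely detected in WT-veh and above 2 in every αERKO sample. Dlgap1, which encodes a scaffold protein of synapses, was 2.61, 2.23, 1.43 and 2.22, 9.23, 8.62, 6.09 and 6.79 and 6.83, 9.01, 14.1 and 9.4 in the same groups (3.62-fold, log2 change 1.47 ± 0.18 SE, adjusted p = 0.000947). Setdb2, which encodes a histone H3 lysine 9 methyltransferase, was 4.27, 3.34, 4.53 and 4.5, 10.1, 16, 17.3 and 11.4 and 8.01, 9.32, 19.9 and 13.8 (3.29-fold, log2 change 1.49 ± 0.22 SE, adjusted p = 0.00274), and its related gene Setdb1 was not called, at 17.9 ± 1.57 and 18.5 ± 0.678 (SD, n = 4; adjusted p = 0.649). Fam46d, an X-linked gene, was 2.36, 3.04, 4.27 and 1.87, 7.34, 11.7, 8.6 and 8.34 and 4.38, 4.98, 10.1 and 11 (log2 change 1.38 ± 0.25 SE, adjusted p = 0.0048). For these 4 genes WT-veh lay below every αERKO-veh and αERKO-DES sample.

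The other large rises were less even. Mid1, a ubiquitin ligase gene at the end of the X chromosome, was 2.51, 3.18, 2.06 and 2.8 in WT-veh and 10.9, 5.28, 20.6 and 4.31 in αERKO-veh (log2 change 1.41 ± 0.32 SE, adjusted p = 0.00906), and 2.89, 3.79, 5.15 and 4.13 in αERKO-DES. The spread within αERKO-veh was larger than the gap to WT-veh. C7, a component of complement, was 5.94, 3.32, 3.75 and 6.4 and 7.6, 31.3, 14.5 and 11.2 in WT-veh and αERKO-veh (log2 change 1.41 ± 0.39 SE, adjusted p = 0.0168), but 2.99, 4.12, 5.71 and 5.06 in αERKO-DES, within or near the WT-veh range. Ache, encoding acetylcholinesterase, was 7.87, 6.03, 5.69 and 8.61 and 18, 32.7, 22.8 and 19.4 (log2 change 1.57 ± 0.38 SE, adjusted p = 0.011), and 6.51, 20.5, 13.4 and 8.7 in αERKO-DES. Prr9 was 1.63, 4.39, 3.73 and 3.57 and 5.65, 17.2, 28 and 5 (log2 change 1.53 ± 0.55 SE, adjusted p = 0.048). Prr9 was not called in 15 of 25 alternatives. D10Bwg1379e, with a transcript of 14579 nt, was 3.49, 5.16, 2.57 and 1.95 and 6.59, 15.3, 12.1 and 10.3 (log2 change 1.49 ± 0.32 SE; 1.04 after the correction). Gm7120 was 5.79, 2.82, 11.9 and 5.76 and 19.9, 23.9, 27.9 and 13.4 (log2 change 1.64 ± 0.36 SE, as large as Sval2 on that scale; adjusted p = 0.00823). With the muscle covariate 6 of the 10 genes stayed DEGs. C7, Ache, Prr9 and Gm7120 did not, at log2 changes of 0.84, 1.25, 0.84 and 1.44.

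Chosen by the same rule, the 10 largest falls included Ms4a5, a member of a family of membrane proteins with 4 spans. Its FPKM was 48.2, 43.9, 40.6 and 33.3 in WT-veh, 6.86, 4.13, 5.58 and 10.4 in αERKO-veh and, with DES, 5.8, 5.94, 3.66 and 8.78 in αERKO-DES (6.15-fold lower, log2 change -2.51 ± 0.29 SE, adjusted p = 0.000812). Every αERKO sample was under 11 and every WT-veh sample over 33. Col26a1, which encodes a collagen, was 31.2, 29.6, 40.8 and 20.6, 7.63, 5.13, 4.13 and 9.07 and 5.99, 4.98, 3.91 and 5.3 (4.71-fold lower, log2 change -2.09 ± 0.62 SE, adjusted p = 0.023). Gm694 was 21.8, 26.5, 32.1 and 28.4 and 13.7, 6.54, 5.89 and 12.3, and Rprm, a gene induced by p53 in cell cycle arrest, 15.6, 13.9, 13.4 and 10.1 and 6.08, 2.04, 1.53 and 4.41. Their adjusted p were 0.00735 and 0.00834. Pnliprp2, a lipase gene, was 8.16, 7.02, 6.44 and 8.04 and 2.1, 0.78, 1.48 and 4.09 (adjusted p = 0.00466), and Jakmip2 5.13, 5.6, 5.38 and 4.39 and 2.08, 1.72, 0.82 and 2.33 (adjusted p = 0.0102).

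The alpha-defensin genes Defa20, Defa2 and Gm15308, which encode small antimicrobial peptides, were also among these falls. Defa20 was 5.3, 4.98, 6.98 and 4.06 in WT-veh and 1.15, 0.38, 1.17 and 0.39 in αERKO-veh (adjusted p = 0.000947), Defa2 6.38, 5.81, 5.69 and 4.27 and 1.73, 0.57, 0.78 and 0.97 (adjusted p = 0.000433), and Gm15308 9.66, 6.52, 7.49 and 8.04 and 2.09, 1.68, 0.77 and 2.69 (adjusted p = 0.00312). These genes are near-identical copies, so fragments may have been split among them and they are not separate observations. With the muscle covariate 6 of the 9 falls described here stayed DEGs, and Col26a1, Rprm and Jakmip2 did not, at log2 changes of -1.74, -1.23 and -1.03. Within αERKO-veh, 8 of these 9 genes, all but Defa20, were higher in samples 1 and 4 than in samples 2 and 3. Samples 1 and 4 were also those with more epididymis and vas deferens marker signal, at mean log2(FPKM + 1) of 5.14 and 4.25 against 2.88 and 2.56, and less skeletal muscle signal. The part of those markers in the falls was not tested.

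**Figure D3:**
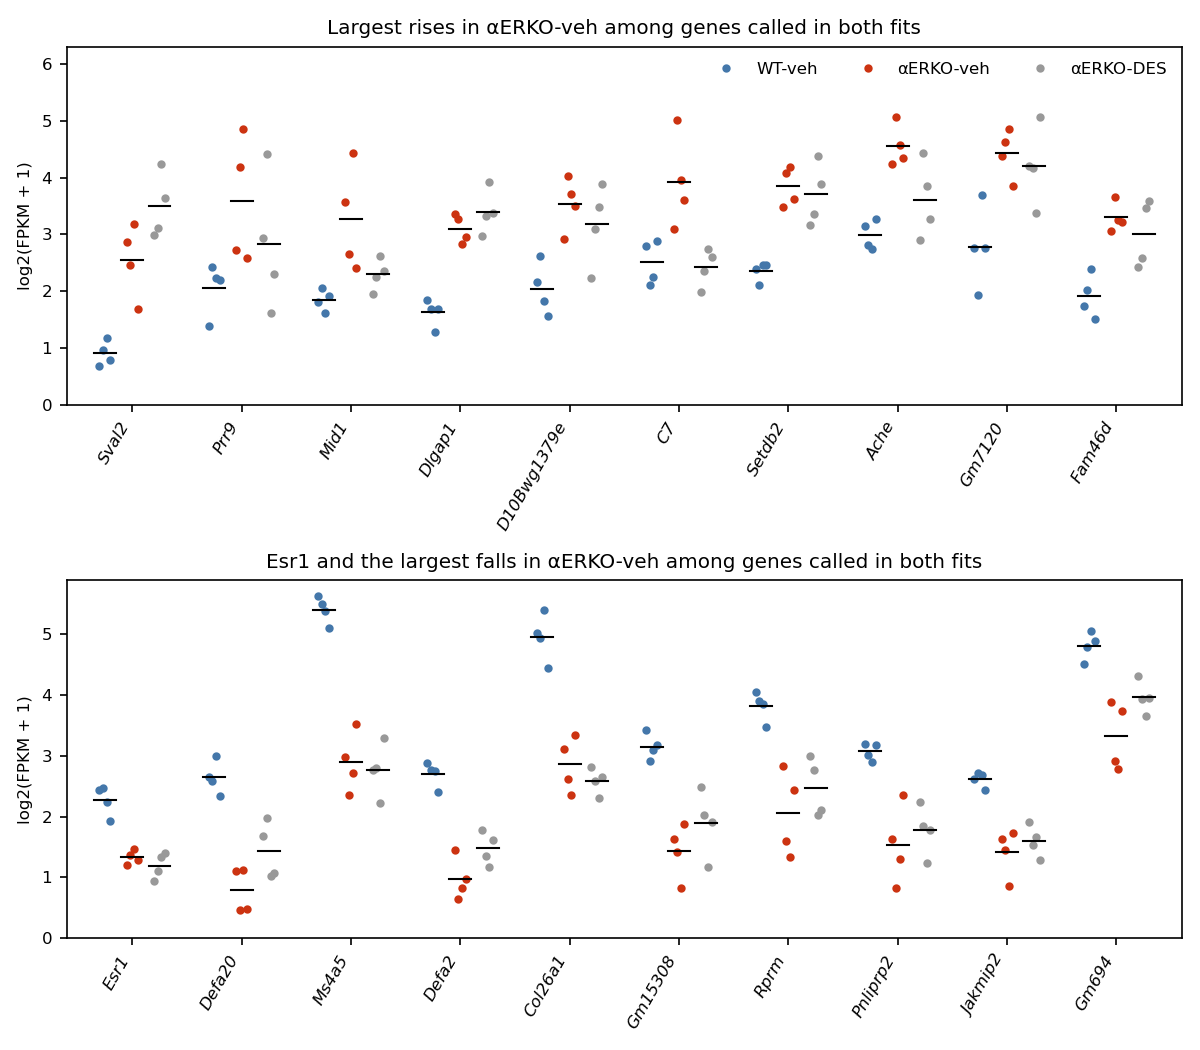
log2(FPKM + 1) of the 10 largest rises (top) and of Esr1 with 9 of the 10 largest falls (bottom) in WT-veh, αERKO-veh and αERKO-DES (1 point a sample, lines at the means of 4). WT-veh and αERKO-veh do not overlap for any gene shown, as the choice of genes required; C7 in αERKO-DES, 2.99 to 5.71 FPKM, lies with WT-veh.

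A list of genes known to respond to oestrogen in other tissues held 22 tested members. Of these 7 rose and 0 fell, against 5.09% higher and 2.95% lower over all genes. The list's median log2 change was 0.08, near the -0.03 of all genes. Cathepsin D (Ctsd), Ltf and cyclin D1 (Ccnd1), typical targets in the uterus or in breast cells, were not called: Ltf was 7.9, 5.68, 9.99 and 10.5 in WT-veh and 7.29, 2.59, 3.8 and 10.8 in αERKO-veh, with overlap. Nrip1, a corepressor that ERα induces in other tissues, was 7.5, 8.67, 6.55 and 3.76 and 11.2, 20.7, 14.7 and 17.1 (log2 change 1.17 ± 0.28 SE, adjusted p = 0.0111), and was the only 1 of the 7 that stayed a DEG with the muscle covariate. Prlr, the prolactin receptor gene, was 29.8, 33.7, 28.1 and 22.9 and 48.5, 63.2, 57.7 and 48.9 (log2 change 0.91 ± 0.26 SE, adjusted p = 0.0204), and was not called after the correction for length.

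Krt4, Clca3, Tff3, Greb1 and Cited2 made up the rest of the 7. Krt4, a keratin of stratified epithelium, was 3.38, 3.35, 3.58 and 18.4 in WT-veh and 5.14, 36.4, 49 and 31 in αERKO-veh (log2 change 1.94 ± 0.59 SE, adjusted p = 0.0253). Clca3, which encodes a secreted goblet cell protein, was 0.36, 0.61, 0.48 and 2.66 and 0.87, 13.1, 13.5 and 8.46 (log2 change 2.06 ± 0.64 SE, adjusted p = 0.0263). In both genes the high samples were WT-veh 4 and αERKO-veh 2, 3 and 4, the same 4 that were high in skeletal muscle markers, and in αERKO-DES, where those markers were low, Krt4 was 3.14, 5.91, 2.01 and 5.29. Psca, from the prostate list, was high in the same 4 samples, at 16.6, 6.3, 9.83 and 62 and 20, 88.8, 146 and 62.9. It was called after the correction for length (adjusted p = 0.0462). As deposited (adjusted p = 0.0545) and with the muscle covariate (adjusted p = 0.882) it was not. Tff3, a mucosal repair peptide gene, was 0.37, 0.7, 0.5 and 1.02 and 1.86, 2.15, 1.54 and 1.19 (log2 change 0.71 ± 0.16 SE, adjusted p = 0.0086). Greb1 was 0.27, 0.3, 0.13 and 0.17 and 0.49, 1.35, 1.72 and 0.59 and was not called after the correction, and Cited2 overlapped between groups. Tff3 did not overlap, and its only lost call was with the muscle covariate (log2 change 0.61, adjusted p = 0.0557).

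Genes known to respond to androgen gave 5 rises and 0 falls of 27 tested, with a median log2 change of 0.19. Over all genes 5.09% were higher and 2.95% lower. After the correction for length 4 were called, and with the muscle covariate 1, Zbtb16, whose values follow with the glucocorticoid-responsive genes. Mme, encoding neprilysin, was 16.1, 14.3, 21.1 and 25.5 in WT-veh and 47.1, 65.5, 58.8 and 35.4 in αERKO-veh (log2 change 1.38 ± 0.32 SE, adjusted p = 0.00914), and 15.5, 23.7, 16.3 and 22 in αERKO-DES. Azgp1 was 94.4, 72.4, 101 and 137 and 191, 203, 278 and 148 (log2 change 1.01 ± 0.28 SE, adjusted p = 0.0179). Fkbp5, a chaperone gene induced by androgens and glucocorticoids, was 42.7, 37.4, 41.1 and 62.2 and 78.1, 77.6, 87.9 and 75.2 (log2 change 0.81 ± 0.16 SE, adjusted p = 0.00592), and 78.8, 78.3, 86.5 and 67.8 in αERKO-DES. With the muscle covariate Mme, Azgp1 and Fkbp5 lost their calls (log2 change 1.10, 0.64 and 0.57, adjusted p = 0.076, 0.195 and 0.0522). Pbsn, an androgen-dependent gene of the male accessory glands, was not called, at 2103 ± 80.9 and 1965 ± 312 (SD, n = 4; adjusted p = 0.896). Srd5a2, which encodes the enzyme that turns testosterone into dihydrotestosterone, was 10.2, 12.1, 9.58 and 10.9 and 17.6, 21.1, 18.1 and 18.8 (1.77-fold, log2 change 0.77 ± 0.25 SE, adjusted p = 0.0304), the only call among 14 steroid-converting enzymes. It was called after the correction for length, but not with the muscle covariate (log2 change 0.77, adjusted p = 0.116) and in all not in 11 of 25 alternatives.

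Glucocorticoid-responsive genes gave 3 rises and 0 falls of 18 tested, against 5.09% and 2.95% of all genes, with a median log2 change of 0.01. Fkbp5 is on this list too, and so is Zbtb16, which encodes a zinc finger repressor. Zbtb16 was 6.07, 7.39, 5.41 and 5.05 in WT-veh, 13, 18, 15.1 and 15.2 in αERKO-veh and, with DES, 8.04, 11.8, 10.9 and 12.4 in αERKO-DES (2.56-fold, log2 change 1.23 ± 0.14 SE, adjusted p = 0.000548). Klf9, a transcription factor gene, was 24.5, 24.1, 22.4 and 17.4 and 29.3, 43.4, 39.2 and 37 (log2 change 0.73 ± 0.17 SE, adjusted p = 0.00911). All 3 rises held after the correction for length, at 1.10, 0.80 and 0.65 on the log2 scale for Zbtb16, Fkbp5 and Klf9. Zbtb16 and Klf9 stayed DEGs with the muscle covariate, and Fkbp5 did not (log2 change 0.57, adjusted p = 0.0522).

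Transcripts of the secretory proteins of the gland were abundant, and none but Sval2 of 16 tested was called. The other 15 all had a lower mean in αERKO-veh, and 7 of the 16 did not overlap and were lower, against 18.4% of all genes. Svs5 was 11112, 11904, 10084 and 10167 in WT-veh and 8807, 5248, 6575 and 7803 in αERKO-veh (ratio 0.657, log2 change -0.63 ± 0.33 SE, adjusted p = 0.166). Svs4 was 10445, 10901, 10074 and 9914 and 8338, 5286, 6293 and 6849, and Svs2 9085, 10031, 8946 and 8196 and 8053, 4937, 6076 and 6754. The median log2 change of the list was -0.49 as deposited and -0.12 after the correction, and the median transcript length was 1060 nt. Wfdc3 varied widely within WT-veh, from 2.19 to 226. The study states that the SV was cut free of the anterior prostate, and markers of the anterior prostate and the other lobes gave no DEG of 12. Sbp, a spermine-binding protein gene of the prostate, was 58.8, 2.59, 2057 and 4368 in WT-veh, 490.0, 85.9, 43.2 and 457 in αERKO-veh and, with DES, 4.92, 6.9, 4.33 and 4.46 in αERKO-DES. Within WT-veh alone it thus ran from 2.59 to 4368. Tgm4 was 1646 ± 169 and 1755 ± 338 (SD, n = 4). Of 40 genes of the secretory pathway and protein folding, Ern1, the sensor IRE1 of the unfolded protein response, and Sel1l, a gene of protein degradation in the endoplasmic reticulum, rose, a count near the share over all genes (5.09% higher). Ern1 went from 33.3 ± 9.92 to 58.6 ± 7.98 (adjusted p = 0.0189) and Sel1l from 39.9 ± 4.39 to 64.7 ± 17.3 (SD, n = 4; adjusted p = 0.00916), and neither was called after the correction.

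Growth factor signalling gave 7 rises and 0 falls of 39 tested, against 5.09% and 2.95% of all genes and 5.15% higher among transcripts from 4000 to below 6000 nt, and a median log2 change of 0.19. The median transcript length of the list was 4245 nt. The ligand Egf was 38.1, 31.8, 25.4 and 28.8 in WT-veh and 40.8, 68.8, 96.9 and 48.1 in αERKO-veh (log2 change 0.95 ± 0.21 SE, adjusted p = 0.00895). The ligand Fgf2 was 1.24, 1.39, 0.72 and 1.34 and 1.99, 5.2, 1.74 and 3.13 (log2 change 0.82 ± 0.24 SE, adjusted p = 0.0211). Among receptors, Erbb3, a partner of the EGF receptor family that binds neuregulins, was 17.6, 17.9, 13.2 and 9.79 and 27.8, 36.5, 25.2 and 31.8 (log2 change 1.03 ± 0.21 SE, adjusted p = 0.00694), and the fibroblast growth factor receptor gene Fgfr3 was 7.15, 8.12, 7.17 and 7.77 and 10.3, 14.5, 14.8 and 12.8 (adjusted p = 0.0116). Igf1r, the receptor of insulin-like growth factor 1, was 14.5, 14.8, 11.7 and 10.6 and 22, 25.7, 20.7 and 22.8 (log2 change 0.78 ± 0.10 SE, adjusted p = 0.00152). Egf, Erbb3 and Fgfr3 were called after the correction for length. With the muscle covariate Erbb3, Igf1r and Ptch1 stayed called, and Egf and Fgfr3 did not (log2 change 0.70 and 0.56, adjusted p = 0.0823 and 0.0969). Igf1r, with a transcript of 11409 nt, kept an adjusted p of 0.00543 but a log2 change of only 0.39, under the fold required, and Egfr, Fgf2 and Ptch1 lost their calls after it.

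Of 31 transcription factors of duct development, Pax8 alone was called, a count near the 2.95% of all genes, at 6.03, 5.47, 7.13 and 7.15 in WT-veh and 5.15, 1.89, 1.64 and 3.23 in αERKO-veh (log2 change -0.98 ± 0.33 SE, adjusted p = 0.0357), and not after the correction (-0.95, adjusted p = 0.0659). In the extracellular matrix, Timp1, an inhibitor of metalloproteinases, fell from 447, 369, 399.7 and 404 to 245, 128, 139 and 203 in the samples in order (2.27-fold lower, log2 change -1.22 ± 0.28 SE, adjusted p = 0.00905), and the fall was called after the correction (-0.85) but not with the muscle covariate (log2 change -1.07, adjusted p = 0.0619). The laminin genes Lama1 and Lama3 rose 1.83-fold and 1.75-fold, with no overlap, and lost their calls after the correction. They and Timp1 belong to a list of 58 tested genes of matrix remodelling. Of these 4 rose and 1 fell, near the shares over all genes (5.09% and 2.95%). Of 32 collagens, 1 fell and 1 rose, against 2.95% and 5.09% of all genes. Col26a1 fell and Col4a6 rose (24.5 ± 4.01 to 45 ± 13.8, SD, n = 4). In cell division 2 of 44 genes rose and 0 fell, near the share over all genes (5.09% and 2.95%), and with the muscle covariate 0 were called. Mki67 was 6.09, 5.44, 5.88 and 6.59 and 8.07, 8.16, 14.1 and 9.69 (log2 change 0.62 ± 0.21 SE, adjusted p = 0.0398), and Anln 2.99, 2.74, 2.65 and 3.54 and 4.04, 5.74, 7.79 and 4.51 (adjusted p = 0.0158). After the correction for length Mki67 was not called (log2 change 0.26), and Anln was (log2 change 0.60, adjusted p = 0.0427). Of 28 immediate early genes, 1 rose and 1 fell, again near the shares over all genes. Nr4a3 rose from 14 ± 3.15 to 27.6 ± 6.13 and Myc fell from 55.4 ± 10.3 to 36.7 ± 2.36 (SD, n = 4). Neither was called after the correction (log2 change 0.75 and -0.43) or with the muscle covariate (0.91 and -0.50). Col4a6 was not either (0.58 and 0.72).

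**Figure D4:**
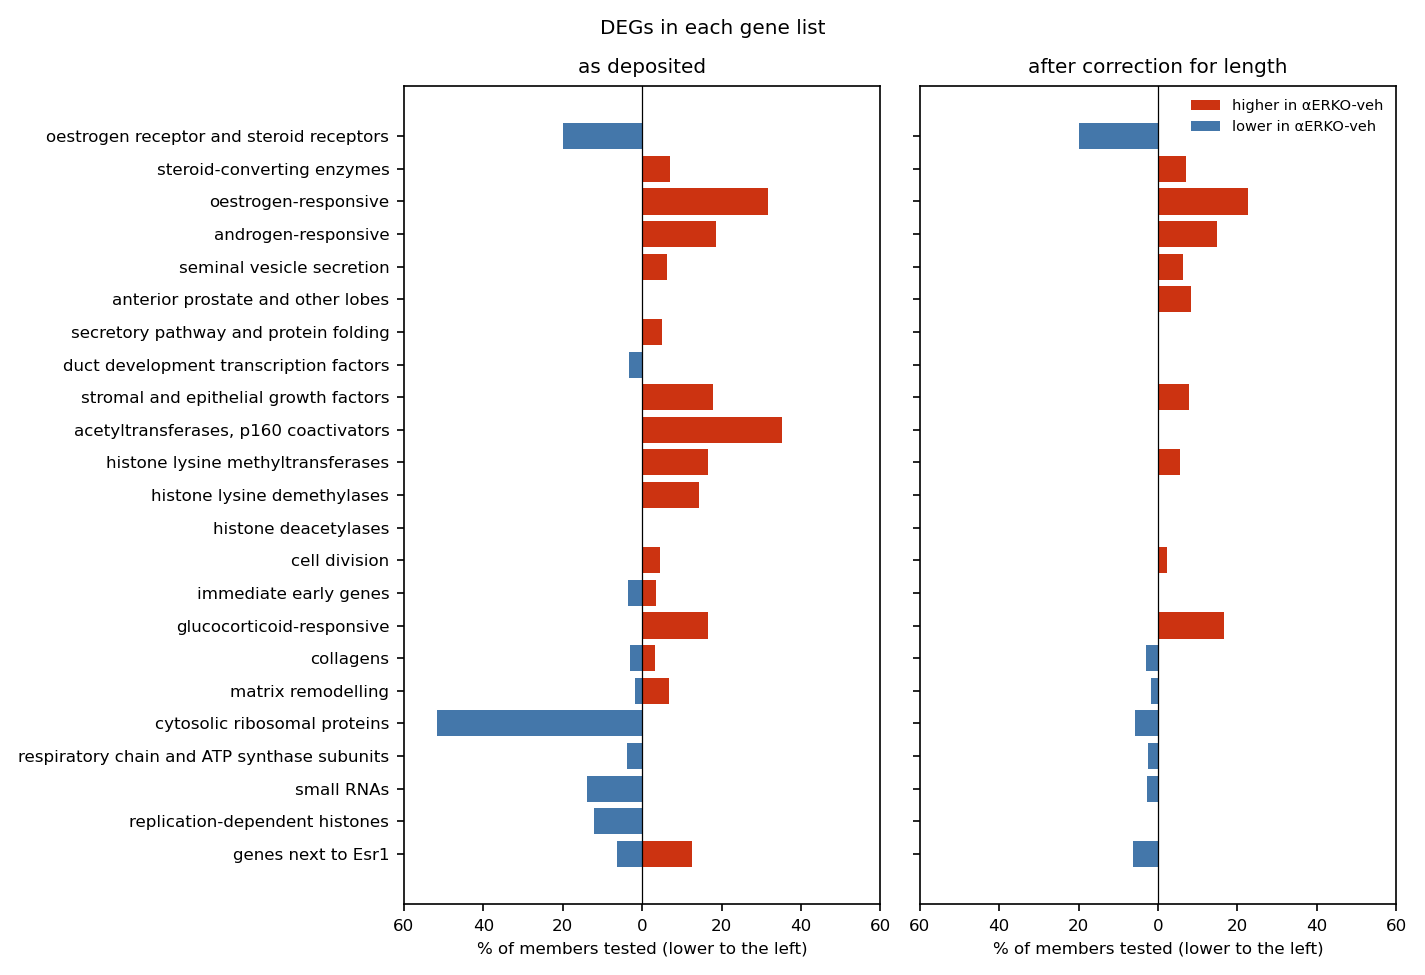
Share of the tested members of each gene list that were DEGs, higher (right) and lower (left) in αERKO-veh, as deposited and after the correction for length. Ribosomal protein genes went from 51.8% to 5.88% lower, and histone acetyltransferases and coactivators from 6 of 17 to 0.

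Several genes that write or erase histone marks rose in the values as deposited, and 0 were called lower. Of 17 histone acetyltransferases and p160 coactivators 6 rose and 0 fell, of 36 lysine methyltransferases 6 and 0, of 21 lysine demethylases 3 and 0, and of 18 deacetylases 0 and 0. Over all genes 5.09% were higher and 2.95% lower, and among those with transcripts from 6000 to below 8000 nt 13.9% were higher. The median lengths of the acetyltransferase, methyltransferase and demethylase lists were 7329, 6042 and 5935 nt. Below the fold required, 6 of the 18 deacetylases did not overlap and were lower and 1 was higher, against 18.4% and 13.5% of all genes. At any fold 5 passed the adjusted p lower and 1 higher, against 17.3% and 12.2%. The median log2 change of the deacetylases was -0.11, and -0.19 after the correction for length. Crebbp, encoding the acetyltransferase CBP, was 5.33, 5.45, 3.82 and 3.48 in WT-veh and 5.71, 9.73, 7.44 and 7.63 in αERKO-veh (1.69-fold, log2 change 0.64 ± 0.16 SE, adjusted p = 0.0119), and 3.83, 6.21, 5.44 and 6.15 in αERKO-DES. Its partner Ep300 was 10.2, 11.4, 8.42 and 7.24 and 12.1, 19.4, 14.9 and 15.5 (1.66-fold, log2 change 0.68 ± 0.15 SE, adjusted p = 0.0085). The p160 coactivator Ncoa2 was 7.49, 8.36, 6.17 and 5.56 and 9.91, 13.8, 11 and 11.6 (1.68-fold, log2 change 0.67 ± 0.13 SE, adjusted p = 0.00571), and Ncoa1, at a ratio of 1.49, was just under the fold required (adjusted p = 0.00665). Within WT-veh, sample 4 was the lowest for each of the 4 genes, and it also had the lowest rho with length.

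All 6 called acetyltransferases and coactivators have transcripts of 7699 to 10820 nt, and after the correction for length 0 of 17 were called. The log2 changes fell to 0.26 for Crebbp, 0.33 for Ep300 and 0.37 for Ncoa2, with adjusted p of 0.0801, 0.0251 and 0.0124. The methyltransferases Kmt2a (16470 nt) and Ash1l (11644 nt) rose 1.83-fold and 1.81-fold as deposited, and had log2 changes of 0.30 and 0.37 after the correction. The demethylases Kdm5a, Kdm7a and Kdm6a rose 1.64-fold, 1.6-fold and 1.51-fold, and none stayed called after the correction. With the muscle covariate the calls higher were as many as deposited, 6 acetyltransferases and coactivators, 6 methyltransferases and 3 demethylases, among them each gene named here as called apart from Smyd1. Kat2a, an acetyltransferase with a transcript of 3269 nt, moved the other way, from 41, 42.8, 45.9 and 45.5 to 28.9, 25.8, 32.1 and 30.1 in the samples in order. It had a log2 change of -0.57 as deposited and -0.53 after the correction, just under the fold required both times (adjusted p = 0.00322 and 0.00494), and was called lower with the muscle covariate. Among these lists of histone acetyltransferases, methyltransferases, demethylases and deacetylases, Setdb2 was the only 1 called as deposited, after the correction and with the muscle covariate. Smyd1, the other methyltransferase still called after the correction, is a muscle gene, and was 0.06, 0.03, 0.15 and 2.66 in WT-veh and 0.29, 5.47, 8.69 and 3.19 in αERKO-veh.

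At the short end of the length scale the direction was reversed. Of 85 cytosolic ribosomal protein genes 44 fell (51.8%) and 0 rose, and 83 passed the adjusted p without the fold requirement. Their median log2 change was -0.60 and their median transcript length 1094 nt. Over all genes 2.95% fell and 17.3% passed lower at any fold. Among transcripts from 500 to below 1000 nt 13.6% fell, and from 1000 to below 2000 nt 5.03%. Rps14 was 409.5, 319.8, 361 and 345 in WT-veh and 274, 151, 206 and 194 in αERKO-veh, and Rpl41 2352, 2099.8, 2268 and 2302 and 1812, 1114, 1517 and 1438, with no overlap in either gene. After the correction for length 5 of 85 were called, against 0.751% lower over all genes, and the median was -0.27. Quantile normalization left 8 and rescaling without the 20 most abundant genes 6. The muscle covariate left 23, and that covariate with the correction 0. As deposited, 14 fell without αERKO-veh 2 and 71 without αERKO-veh 1. Rpl3l, a ribosomal protein gene of striated muscle, was the 1 member with a higher mean in αERKO-veh. Of 77 respiratory chain and ATP synthase subunits 3 fell, Atp5e, Uqcr11 and Cox6c, near the 2.95% of all genes. At any fold 62 passed the adjusted p lower, against 17.3% of all genes, and 60 did not overlap and were lower, against 18.4%. The median moved from -0.42 to -0.07 with the correction. Of 50 replication-dependent histone genes, with a median length of 531 nt, 6 fell. Over all genes 2.95% fell, and among transcripts from 500 to below 1000 nt 13.6%, so this count was near that of the length class. Hist1h4j, 1 of the 6, was 11.2, 11.6, 8.63 and 12.4 and 4.96, 3.13, 5.04 and 5.17. After the correction for length 0 of the histone genes were called.

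Of 36 tested small RNAs and RNAs made by RNA polymerase III, 5 fell and 0 rose, against 2.95% lower over all genes and 14.9% lower among those under 500 nt. The median length of these RNAs was 133 nt. The other 31 were not called, 6 of the 36 had a higher mean in αERKO-veh, and after the correction for length 1 was called lower. Rpph1, the RNA of ribonuclease P, was 66.9, 5.8, 68.2 and 69.7 in WT-veh and 2.01, 2.54, 0.99 and 2.69 in αERKO-veh, and Rmrp, the RNA of the related ribonuclease MRP, 57.4, 4.62, 58.7 and 49.1 and 1.93, 2.83, 1.46 and 3.58. In both genes WT-veh 2 was near the αERKO-veh samples and far from the other WT-veh samples, and αERKO-DES 1 was high, at 24.1 and 28.3. Rmrp and Snord33 lost their calls with the correction (log2 change -2.65 and -3.20, adjusted p = 0.0502 and 0.127). Snord33 was listed at 0 in all αERKO-veh samples and in WT-veh 1.

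Markers of the cells that make up the gland gave few calls. No DEG was called among 16 smooth muscle, 14 luminal epithelium and 7 basal epithelium markers, and their median log2 changes were -0.20, -0.06 and 0.41. Of 14 fibroblast markers Thy1 alone fell, from 74, 82.6, 78.7 and 68.4 to 45.1, 43.3, 38 and 47.9 in the samples in order (log2 change -0.79 ± 0.12 SE, adjusted p = 0.00323), and it lost its call after the correction (-0.57). Of 14 leukocyte markers 4 fell, against 2.95% of all genes: Lyz2 and C1qa, C1qb and Coro1a, of which the first 3 mark mainly macrophages. Lyz2 was 106, 58.6, 76.2 and 94.9 and 41.4, 53.3, 33.5 and 62, and C1qb 70.5, 42.2, 51.8 and 69.6 and 36.8, 33.6, 30.6 and 42.1. None was called after the correction. Of 10 endothelial markers 3 rose, Flt1, Kdr and Tek, all receptors of vascular growth factors, against 5.09% of all genes and 5.15% and 13.9% of those with transcripts from 4000 to below 6000 nt and from 6000 to below 8000 nt. Flt1 was 2.98, 3.79, 2.71 and 2.64 and 5.09, 8.95, 6.28 and 6.84 (log2 change 0.94 ± 0.18 SE, adjusted p = 0.00573) and was the 1 that stayed called after the correction (0.69) and with the muscle covariate. The haemoglobin genes Hba-a2 and Hbb-bs were both 1.81-fold lower, and were not called after the correction.

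Markers of tissue next to the gland varied by sample. Of 44 tested skeletal muscle markers 26 were called higher (59.1%), 18 after the correction, and 42 had a higher mean in αERKO-veh, but only 1 did not overlap between groups. Over all genes 5.09% were called higher, 1.93% after the correction, and 13.5% did not overlap and were higher. The fast myosin gene Myh1 was 0.32, 0.13, 1.11 and 15.4 in WT-veh and 3.91, 41.8, 64.8 and 34 in αERKO-veh. In αERKO-DES it was 0.19, 0.55, 0.14 and 0.13. Mylpf was 6.48, 2.48, 17.7 and 307 and 27.1, 249.99, 384 and 219, and Ryr1, the calcium release channel, 0.04, 0.04, 0.11 and 1.03 and 0.23, 3.89, 5.36 and 2.59. WT-veh 4 stood above the other WT-veh samples and above αERKO-veh 1, and in both groups the order of the samples was the same for Myh1 and Mylpf. Acta1, which the gland also expresses, was not called, at 574 ± 95.8 and 536 ± 64.3 (SD, n = 4). No adipose marker of 15 was called. Fabp4 ranged from 95.8 to 494 in WT-veh and from 57 to 477 in αERKO-veh. No epididymis or vas deferens marker of 5 was called, and Crisp1 was 398, 316, 489.6 and 519 and 429, 33, 19.6 and 133, lowest in αERKO-veh 2 and 3. The median log2 change of these 5 markers was nevertheless -1.23. Their mean log2(FPKM + 1) ran from 4.57 to 5.29 in WT-veh and from 2.56 to 5.14 in αERKO-veh.

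**Figure D5:**
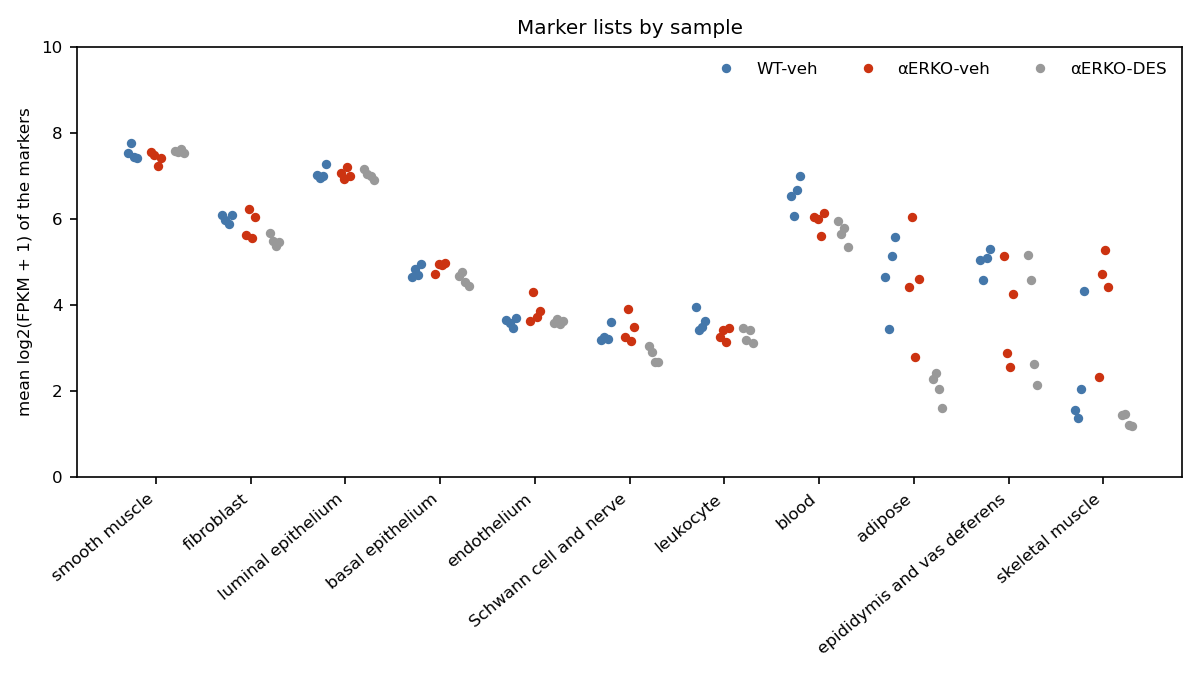
Mean log2(FPKM + 1) of the markers of each cell type or neighbouring tissue in WT-veh, αERKO-veh and αERKO-DES (1 point a sample). In these groups smooth muscle stays between 7.24 and 7.77 and luminal epithelium between 6.90 and 7.28, whereas skeletal muscle runs from 1.38 to 4.31 in WT-veh and from 2.33 to 5.28 in αERKO-veh.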

How the data were processed

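Total RNA from the SV of week 5 mice was sequenced on a HiSeq 2000, 4 samples for each of 4 groups. The authors filtered the reads by quality, aligned them to mm10 with TopHat2 2.0.4 and obtained FPKM with Cufflinks 2.0.2. The deposited table holds these FPKM values. Its annotation, the library kit and any further scaling are not given in the sources used here, and the depth per sample cannot be read from FPKM. Values were analysed as log2(FPKM + 1), pseudocount 1, with limma 3.58.1 in R 4.3.3. The model held all 16 samples with a mean per group and eBayes with a variance trend, and p-values were adjusted by Benjamini-Hochberg over the genes with mean FPKM above 1 in αERKO-veh or WT-veh. Fold changes on this scale are smaller than ratios of FPKM for low genes. DEGs passed an adjusted p of 0.05 with means at least 1.5-fold apart. The study describes the RNA of WT-DES as taken from pools of mice and that of the other groups as from individual mice. The shared estimate of spread therefore covers both kinds of sample.

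For the correction for length, a lowess trend (span 0.3) on log10 length of the longest transcript in GENCODE M21, matched by symbol or synonym, was subtracted from each sample, and the fold was taken from the corrected difference. Promoters were RefSeq sequences of GRCm38.p6. Both fits were tested on simulated data. The same replicate number did not pair samples. The genes and lists were chosen with earlier results of these data known. Besides Esr1, the text names the 10 largest rises and falls among DEGs in both fits with a mean FPKM of at least 5 and no overlap, up to 4 DEGs and 3 abundant members per list, and genes the study names. Further genes, among them those called under every alternative, were named after their values were seen. Some genes that fall under the rule are not reported here.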

Additional observations from a re-analysis of the deposited data

Results flagged for a closer look

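Among 316 sets of 4 samples examined, 15 held 1 sample far from the other 3 (4.75%, where chance gives about 5%). The number given for each is the gap to the nearest sample divided by the whole range. In WT-veh the sample apart was sample 4 for Clca3 (0.891), Krt4 (0.985), Smyd1 (0.954), Ryr1 (0.929), Myh1 (0.936), Mylpf (0.95) and Rpl3l (0.929), in each case the highest. It was sample 2 for Rpph1 (0.957), at 5.8 FPKM against 66.9 to 69.7 in the others. Gaps of the same kind stood out in the mean log2(FPKM + 1) of lists in WT-veh: ribosomal proteins (0.899), at 6.21 against 6.39 to 6.41, histone deacetylases (0.873), at 4.24 against 4.34 to 4.35, and luminal epithelium (0.845), at 7.28 against 6.96 to 7.01. In αERKO-veh they were Lama3 (0.84), at 5.65 against 7.07 to 7.34, Hist1h4j (0.897), at 3.13 against 4.96 to 5.17, Wfdc3 (0.842), at 52.7 against 9.77 to 16.5, and the oestrogen-responsive list (0.884), at 4.27 against 4.57 to 4.61.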

How the results depend on the processing

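The 1176 DEGs became 372 (268 higher, 104 lower) with the correction for length, 721 (224 lower) with a correction for GC content, 680 (382 higher) with the muscle markers as covariate and 453 (247 higher, 206 lower) at an adjusted p of at most 0.01. Higher DEGs numbered 460 with a mean FPKM above 5. Rescaling without the 20 most abundant genes gave 1473 higher and 130 lower. The length correction and the muscle covariate together, chosen after seeing the data, gave 195 DEGs (111 higher, 84 lower), which is also the effect of the covariate on the 372. Leaving out 1 sample gave 473 to 1683 DEGs, 292 to 1018 higher and 181 to 665 lower, and 106 to 606 after the correction for length. The lowest of these left out αERKO-veh 2, the highest αERKO-veh 1. Higher DEGs numbered 467 without WT-veh 3, and lower DEGs 272 without WT-veh 4. The counts with a pseudocount of 0.1, no minimum on FPKM, the 8 samples alone, no variance trend, sample weights, median-ratio scaling and quantile normalization were within 1.5 times 1176.

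The fall of Esr1 was called under every alternative that tested it. It was not tested with a mean FPKM above 5. Mylpf changed sign with the muscle covariate (-0.20) and Ryr1 with that covariate and the length correction (-0.064), neither called. Samples of WT-veh and αERKO-veh with the same replicate number deviated together weakly or not at all (correlations 0.17, 0.05, -0.06 and 0.03), and the replicate block gave 1161 DEGs, or 374 (273 higher, 101 lower) with the length correction.

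Limits are that FPKM hide the depth, that length trend and muscle signal move with genotype in 4 against 4 mice, and that genes without an annotated length have no corrected value. The breeding source of the mice also differs with genotype, in αERKO-DES as in αERKO-veh, and cannot be told apart from it. The cause of either trend was not tested.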
